A study of Rattus norvegicus with 9 samples.

Results

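Rats that had a middle cerebral artery occlusion and were given Panax notoginseng (PN) were compared with rats that had only the sham operation, to ask which transcripts still differed once an occluded brain had been treated. The comparison rests on 6 of the 9 libraries of the series: PN 3A, 6A and 7A against sham 4B, 5B and 9A, each named by its group and the code that closes its title. A gene was a member of the comparison when its FPKM (read fragments normalised for transcript length and sequencing depth) was at least 1 in 3 or more of these 6 libraries. That kept 14557 of the 32883 genes in the deposited table. Of these, 12626 reached 1 FPKM in all 6 libraries. Another 38 passed through the PN libraries alone and 8 through the sham libraries alone, so these genes had to differ and are no evidence of a difference.

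The PN group carried both the occlusion and the plant, and the sham group neither, so an effect of the occlusion and an effect of the plant cannot be told apart in this comparison. The other 3 libraries came from rats with the occlusion and no treatment (MCAO), and their values are given beside those of the genes described below. The tissue is labelled brain. The strain, sex, age, brain region, hemisphere, dose, and the times of reperfusion and sampling are stated neither in the labels nor in the table. Since no label ties the libraries of a group to separate animals, every p-value refers to the spread between libraries, part of which may be technical.

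Occlusion of the middle cerebral artery cuts the blood supply to the lateral cortex and the striatum, and reperfusion brings oxygen, leukocytes and serum proteins back into damaged tissue. Such brains are known for a wave of stress, inflammatory and glial transcripts and for a loss of neuronal ones in the injured territory. Panax notoginseng is a medicinal plant of the ginseng family whose root is rich in triterpene saponins, among them notoginsenosides and ginsenosides. In bulk tissue, fewer cells of a type and less RNA per cell cannot be told apart. The table names genes by rat Ensembl identifier only, and none of the 32883 identifiers could be paired with a symbol, so the genes are described by level, direction and spread. The brain label could not be checked against cell type markers for the same reason, and no sequence is printed.

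Between PN and sham, 3 genes had an adjusted p under 0.05 (limma on log2(FPKM + 1), two-sided, Benjamini-Hochberg over the 14557 genes): 2 were higher in PN (0.0137% of the genes tested) and 1 was lower (0.00687%). All 3 had a value in every library of 1 group and were listed at 0 in every library of the other. They belong to the 38 and 8 genes that passed the filter through 1 group alone, so their calls are a description and no evidence that the groups differ, and no gene outside that class was called. A 0 in an FPKM table may also stand for an estimate that failed.

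ENSRNOG00000048608 was at 18.7 FPKM in PN 3A, 16.7 FPKM in PN 6A and 18.0 FPKM in PN 7A. It was listed at 0 in all 3 sham libraries and in all 3 MCAO libraries. The PN libraries were close to each other and far from every other library (limma, adjusted p = 1.1e-05). Over the 22 alternatives that tested it, its adjusted p ran from 1.14e-06 to 0.00224; since its zeros enter each of them, this adds no support.

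ENSRNOG00000028243 had the same arrangement at a lower level. It stood at 2.997 FPKM in PN 3A, 3.35 FPKM in PN 6A and 2.27 FPKM in PN 7A, and was listed at 0 in the sham and MCAO libraries. Its adjusted p was 0.0287 (limma). It passed under 7 of 21 alternatives and missed under 14 (adjusted p from 0.000977 to 0.462), among them the fit of the 6 libraries alone (adjusted p = 0.241), a pseudocount of 0.1 (adjusted p = 0.384) and the omission of any 1 of the 9 libraries (adjusted p from 0.0720 for PN 7A to 0.240 for PN 3A).

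ENSRNOG00000054459 was the gene lower in PN. It was at 22.9 FPKM in sham 4B, 28.7 FPKM in sham 5B and 24.7 FPKM in sham 9A, and was listed at 0 in every PN library (limma, adjusted p = 9.93e-06). It was at 0 in the MCAO libraries as well, so in both groups with the occlusion it was listed at 0. As a gene that passed through sham alone it had to differ, and its adjusted p of 9.91e-07 to 0.00224 over 22 alternatives adds no support. Each of the 6 libraries held 9 to 20 zeros in genes whose median over these libraries reached 5 FPKM. Once every gene with a 0 in any of the 9 libraries was removed, 0 genes passed (limma, lowest adjusted p = 0.347, with 620 genes below 0.05 before adjustment).

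The next gene in rank had a value in every library and a graded pattern over the 3 groups. ENSRNOG00000001416 was at 47.5 FPKM in sham 4B, 45.8 FPKM in sham 5B and 33.7 FPKM in sham 9A. In PN it was at 9.05 FPKM in 3A, 11.04 FPKM in 6A and 16.4 FPKM in 7A. The MCAO libraries lay between, at 27.8 FPKM in 3B, 25.3 FPKM in 6B and 21.8 FPKM in 7A. No library of any group reached into the range of another. The means were 42.3 ± 7.51 FPKM in sham, 24.95 ± 3.01 FPKM in MCAO and 12.2 ± 3.82 FPKM in PN (SD, n = 3 each).

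The PN to sham difference of ENSRNOG00000001416 was -1.74 on the log2 scale, with a standard error of 0.23 and a 95% interval from -2.26 to -1.22. It did not pass over all genes (limma, adjusted p = 0.102), and it passed under none of the 23 alternatives (adjusted p from 0.0605 to 0.882). Its difference was -0.73 between MCAO and sham (adjusted p = 0.362) and -1.01 between PN and MCAO (adjusted p = 0.178). These comparisons share libraries, so the 3 values are not independent of each other.

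**Figure D1:**
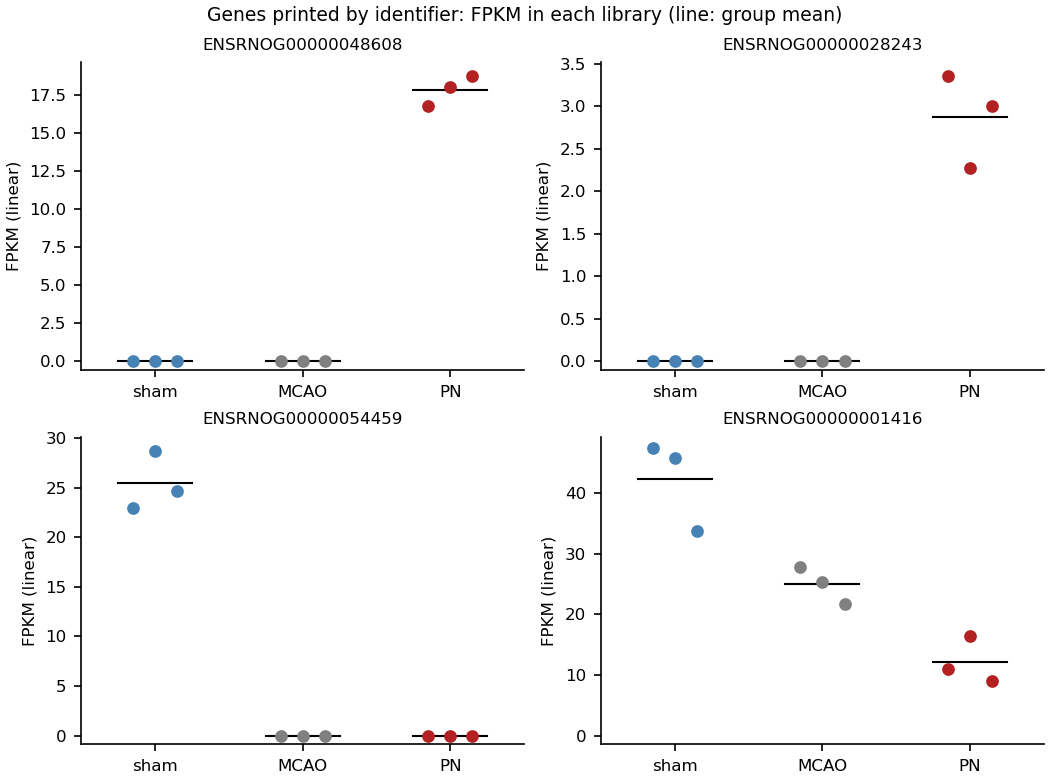
FPKM on a linear axis for the 4 genes printed by identifier, with 1 point per library and a line at each group mean (n = 3 per group). The first 3 genes sit at 0 in 2 whole groups, while ENSRNOG00000001416 steps down from sham (33.7 to 47.5 FPKM) through MCAO (21.8 to 27.8 FPKM) to PN (9.05 to 16.4 FPKM).

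Below the adjusted threshold, the differences were small and leaned towards higher values in PN. Before adjustment 622 genes had a p under 0.05, which is 4.27% of those tested, where the threshold itself admits 5% of genes without any difference. PN was higher in 496 of them (79.7%) and lower in 126, and 30 and 4 of these had passed the filter through 1 group alone. This lean depended on the scaling and on single libraries. The share was 72.4% with equal sums, 69.3% with median-of-ratios scaling and 70.4% with quantiles. Without PN 6A it was 56.3%, with 311 higher and 241 lower. The 622 genes became 249 without sham 5B and 967 without sham 4B. They became 313 with the letter of the library code as a covariate, and 1521 with array weights, which put a weight of 6.46 on PN 7A.

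Over all genes the median log2 difference was 0.03, with -0.52 at the 5th percentile and 0.62 at the 95th. The median absolute difference was 0.18, against a median standard error of 0.25. The 95% interval of the difference stayed inside 2-fold, up or down, in 69.8% of the genes. It stayed inside 4-fold in 95.5% and inside 1.5-fold in 25.1%.

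A description without a model counts the genes in which the groups did not overlap. PN lay wholly above sham in 898 genes (6.17% of those tested) and wholly below in 375 (2.58%), together 8.74%. Without any difference, a share of 0.1 of the orderings of 6 libraries separates 3 from 3 in either direction. These counts alone therefore show no difference between the groups. Where the difference was also at least 2-fold on the FPKM + 1 scale, 150 genes were higher (1.03%) and 17 were lower (0.117%). Among them, 15 of the 150 and 1 of the 17 had passed the filter through 1 group alone. Both counts and their balance moved with single libraries. There were 244 higher and 160 lower genes without sham 4B, 114 and 30 without sham 5B, and 342 and 64 without sham 9A. The numbers were 259 and 68 without PN 3A, 117 and 76 without PN 6A, and 292 and 92 without PN 7A. Although 2 libraries against 3 separate more easily, the higher genes fell to 114 and 117 in 2 of these cases. Leaving out a library removes no separation, so these falls came from differences that dropped under 2-fold. Of the 150 higher genes, 139 had an unadjusted p under 0.05, as had 12 of the 17 lower ones. The gap between groups was narrow. Between the lowest PN and the highest sham library it had a median of 0.24 on the log2 scale in the 150 genes. In the 17 lower genes the gap between the lowest sham and the highest PN library was 0.28.

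The libraries at the 2 edges of this gap were counted separately, and how often the same pair faced each other was not counted. PN 7A was the lowest PN library in 93 of the 150 higher genes, PN 3A in 44 and PN 6A in 13. Sham 9A was the highest sham library in 118, sham 4B in 22 and sham 5B in 10. In the 17 lower genes PN 7A was the highest PN library in 9 and sham 4B the lowest sham library in 9.

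**Figure D2:**
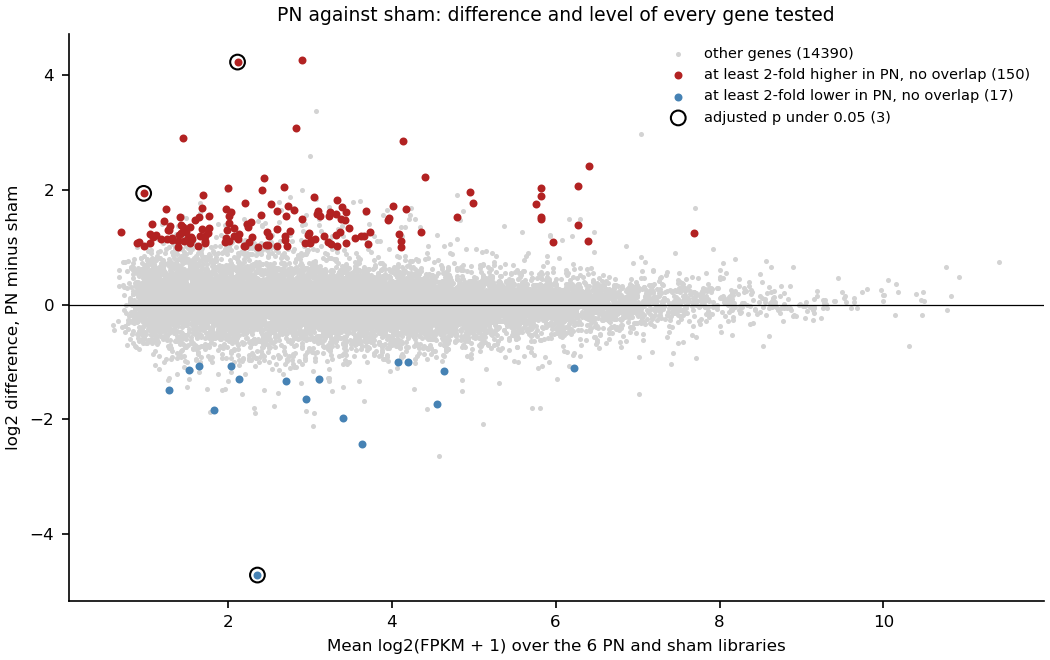
Difference between PN and sham (log2, vertical axis) against mean level over the 6 libraries (log2(FPKM + 1), horizontal axis) for all 14557 genes. Red points are the 150 genes at least 2-fold higher in PN without overlap, blue points the 17 lower ones, and circles the 3 genes past the adjusted threshold. The red points outnumber the blue ones at every level, from 70 and 5 genes under 5 FPKM to 3 and 0 at 100 FPKM or more. This balance moves with single libraries (117 and 76 genes without PN 6A).

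The lean towards PN differed with the level and with the count used. Among genes at an unadjusted p under 0.05, PN was higher in 202 and lower in 39 under 5 FPKM, 200 and 39 from 5 to 20 FPKM, 82 and 44 from 20 to 100 FPKM, and 12 and 4 at 100 FPKM or more. In genes without overlap, the counts came closer at the upper levels. Among the 4095 genes with a mean under 5 FPKM, PN lay wholly above sham in 340 and wholly below in 96, or 303 and 89 without the genes that passed the filter through 1 group alone. Among the 5865 genes from 5 to 20 FPKM the numbers were 374 and 119. The 3892 genes from 20 to 100 FPKM gave 156 and 133, and the 705 more abundant genes, at 100 FPKM or more, gave 28 and 27. The direction of the upper levels changed with the scaling. With median-of-ratios scaling the numbers were 301 above and 124 below under 5 FPKM, and 276 and 188 from 5 to 20 FPKM. At the levels above that, PN then lay more often below sham: 105 above against 199 below from 20 to 100 FPKM, and 17 against 41 at 100 FPKM or more. With quantiles the numbers were 241 and 175 under 5 FPKM, 284 and 171 from 5 to 20 FPKM, 169 and 127 from 20 to 100 FPKM, and 16 and 27 at 100 FPKM or more. Under these scalings the median difference over all genes moved from 0.03 to -0.01.

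**Figure D3:**
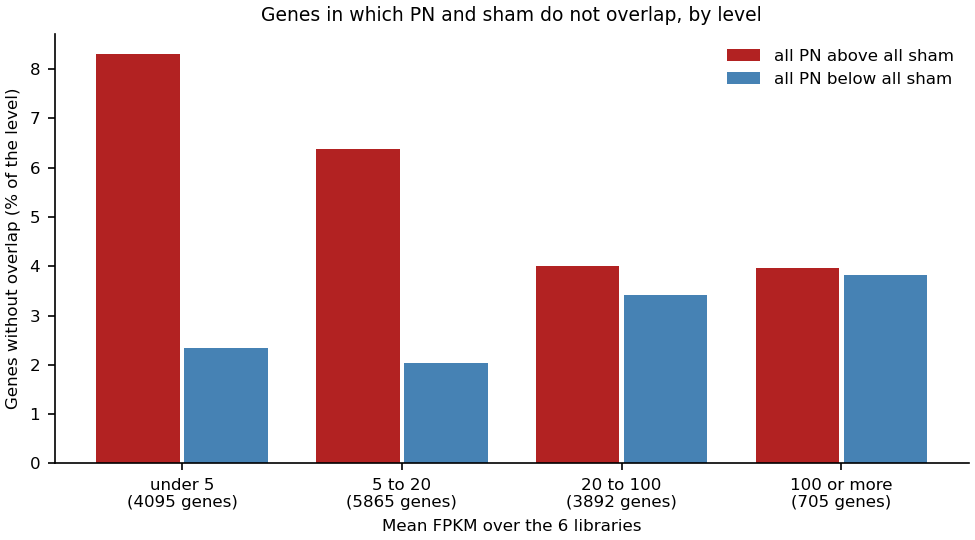
Share of genes (percent of each level) in which all PN libraries lie above all sham libraries (red) or below them (blue), by mean FPKM over the 6 libraries, with values as deposited. Under 20 FPKM the red bars are the taller ones, and above 20 FPKM the bars of a level are nearly equal (156 and 133 genes, 28 and 27 genes).

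The median standard error of the difference was 0.31 under 5 FPKM, 0.24 from 5 to 20 FPKM, 0.21 from 20 to 100 FPKM and 0.24 at 100 FPKM or more. The 95% interval stayed inside 2-fold in 53.1%, 73.2%, 80.5% and 79.6% of the genes at these levels. The share at an unadjusted p under 0.05 was 5.89% under 5 FPKM, 4.08% from 5 to 20 FPKM, 3.24% from 20 to 100 FPKM and 2.27% at 100 FPKM or more.

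The most abundant transcripts differed by less than 2-fold between the group means. Over the 50 genes with the highest means, from 541 to 2883 FPKM, the differences ran from -0.71 to 0.75 on the log2 scale with a median of 0.07, and 3 of them exceeded 1.5-fold. None of the 50 reached an unadjusted p under 0.05 (limma, smallest adjusted p = 0.969). PN lay wholly above sham in 3 of them and wholly below in 0.

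Of the genes with a value in all 6 libraries, no overlap and at least 5 FPKM in the higher group, 611 were higher in PN and 291 lower. The genes that met these conditions apart from overlap were not counted, so no share is given. Over all genes tested the shares without overlap were 6.17% higher and 2.58% lower. The 12 higher and the 12 lower genes with the smallest p are described here, a ranking by p and not by size. None passed over all genes: the smallest adjusted p was 0.355 among those higher and 0.102, that of ENSRNOG00000001416, among those lower (limma). The differences of the 12 higher genes ran from 0.71 to 2.06 on the log2 scale with a median of 1.27, and 8 were at least 2-fold. Those of the 12 lower genes ran from -1.74 to -0.59 with a median of -0.90, and 4 were at least 2-fold. Since these genes were chosen by this contrast, their sizes are a description only.

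The first of the 12 higher genes was tight within both groups. PN 3A, 6A and 7A had 13.8, 12.7 and 16.3 FPKM of it, and sham 4B, 5B and 9A had 6.20, 6.01 and 4.64 FPKM, 1.21 apart on the log2 scale (standard error 0.20, limma adjusted p = 0.355). In MCAO 3B, 6B and 7A it was at 7.11, 5.16 and 5.15 FPKM, and the MCAO and sham ranges overlapped.

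The most abundant of the 12 had rank 2. PN 3A, 6A and 7A had 190.1, 106 and 191 FPKM of it, against 30.8, 57.4 and 27.8 FPKM for sham 4B, 5B and 9A. This was the largest difference of the 12, at 2.06 (standard error 0.35, limma adjusted p = 0.426). The MCAO libraries were at 37.4, 44.3 and 22.8 FPKM, inside or near the sham range and below every PN library.

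Other genes of this set were high in both groups with the occlusion. The gene at rank 5 was at 8.18, 14.2 and 7.43 FPKM in PN and at 11.6, 6.25 and 10.1 FPKM in MCAO (3B, 6B, 7A), against 2.90, 2.60 and 4.85 FPKM in sham. PN and MCAO overlapped in it, and both lay above all sham libraries. Over the 12 higher genes the medians of the group means were 14.2 FPKM in PN, 8.33 FPKM in MCAO and 5.26 FPKM in sham.

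The MCAO mean lay between those of PN and sham in 11 of the 12 higher genes and in 6 of the 12 lower ones. It was at or below both in 1 of each set, and at or above both in 5 of the lower genes. Since the genes were chosen by the PN to sham contrast, these positions are a description. The gene at rank 4 had 11.9, 12.99 and 13.02 FPKM for PN 3A, 6A and 7A, and 19.3, 20.1 and 19.9 FPKM for sham 4B, 5B and 9A. MCAO 3B, 6B and 7A had 19.05, 26.7 and 19.9 FPKM. PN lay below both other groups (PN to sham difference -0.60, standard error 0.16, limma adjusted p = 0.969). The most abundant lower gene was at 85.8, 173 and 141 FPKM in PN, against 227, 278 and 195 FPKM in sham and 233, 279 and 218 FPKM in MCAO. Over the 12 lower genes the medians of the group means were 8.58 FPKM in PN, 16.9 FPKM in MCAO and 16.4 FPKM in sham.

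**Figure D4:**
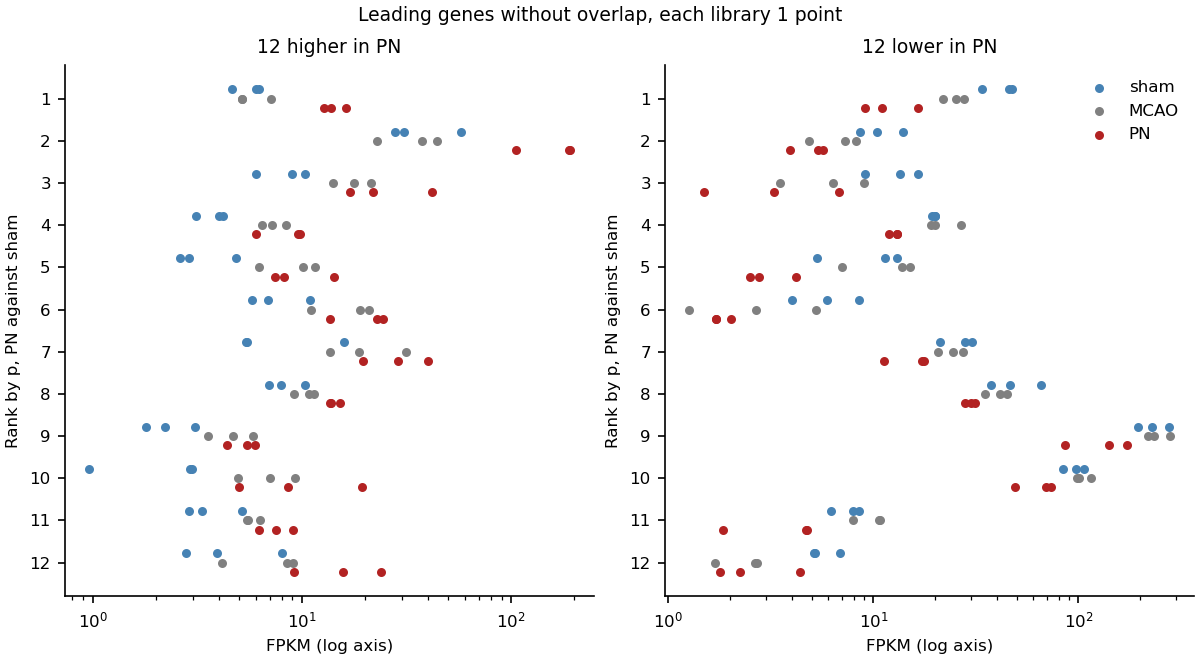
FPKM (log axis) in each library for the 12 genes higher in PN and the 12 lower in PN that led the ranking by p among genes without overlap. Sham is blue, MCAO grey and PN red, and each point is 1 library. In the left panel rank 2 has PN (106 to 191 FPKM) apart from both other groups, while rank 5 has PN and MCAO together above sham. In the right panel rank 1 is ENSRNOG00000001416.

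By the number of genes at least 2-fold apart, the PN libraries were no nearer to each other than to the sham libraries. Single libraries of PN and sham were 386 to 2675 genes apart, with a median of 1229 over the 9 pairs. The 3 pairs within PN were 1141, 1461 and 2471 genes apart, and the 3 pairs within sham 965, 1148 and 1489. The nearest pair of all was PN 7A and sham 9A, with 386 genes, of which 246 were higher in PN 7A. PN 3A was 963 genes from sham 4B and 2471 genes from PN 6A of its own group. PN 6A was nearest to sham 9A, at 1073 genes, ahead of PN 7A at 1141.

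**Figure D5:**
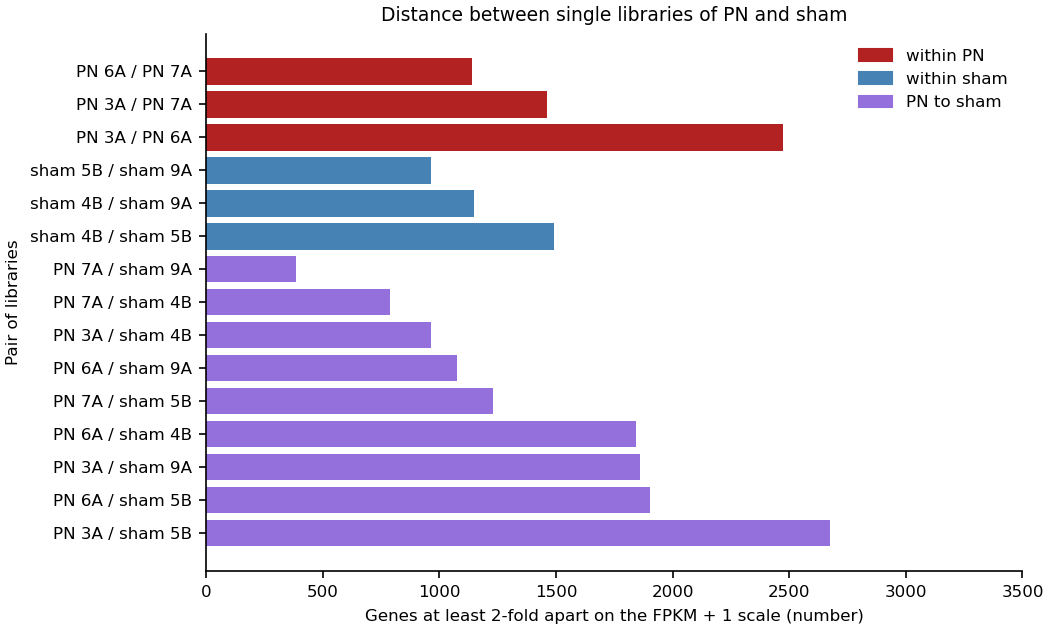
Number of genes at least 2-fold apart on the FPKM + 1 scale for each of the 15 pairs among the PN and sham libraries. Red bars are pairs within PN, blue bars pairs within sham and purple bars pairs across groups. The shortest bar, at 386 genes, crosses the groups (PN 7A and sham 9A), and the longest also does (PN 3A and sham 5B, 2675 genes).

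The difference between the PN and sham means held 20.5% of the variation among the 6 libraries. Splits of 6 libraries into equal groups give about this share on average, so by itself it shows no effect. The first principal component, with 38.02%, had PN 3A at 57.0 and sham 4B at 24.5 at one end and sham 5B at -34.7 and PN 6A at -24.4 at the other, so it crossed the groups. The second, with 28.7%, set PN 6A at 47.2 against sham 5B at -44.3, with PN 3A at 2.24, PN 7A at 6.55 and sham 9A at 4.70 near the middle. The spread within groups was of like size, with a median SD on the log2 scale of 0.30 in PN and 0.27 in sham.

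The depth in reads is unknown. From the steps of low values, the relative depth of the 6 libraries differed at most 1.24-fold, with PN 3A the shallowest and PN 7A the deepest. The sum of FPKM was 394059 to 414763 in the sham libraries and 404624 to 445693 in the PN libraries. Between 13934 and 14687 genes reached 1 FPKM. Each start of a column name occurs in 1 group only, so PN and sham cannot be compared within a start. The column names of PN 3A and sham 9A start unlike those of the rest of their groups, for a reason that no label gives. With both left out 3 genes passed (limma), of which 2 were ENSRNOG00000048608 and ENSRNOG00000054459 and the other a different gene from ENSRNOG00000028243, and 991 genes had an unadjusted p under 0.05, 763 of them higher in PN.

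In the same fit of the 14557 genes, a p under 0.05 before adjustment was reached by 622 genes for PN against sham, 1631 for MCAO against sham and 1981 for PN against MCAO. The median absolute log2 difference was 0.18, 0.25 and 0.27 in the same order. The genes without overlap made up 8.74%, 19.8% and 20.7%, where 3 libraries against 3 that do not differ separate in a share of 0.1. The comparisons share libraries, and whether these counts differ by more than the libraries' spread was not tested. The genes were filtered on the PN and sham libraries alone, so some genes expressed mainly in MCAO are missing. A filter on all 9 libraries kept 15051 genes.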

How the data were processed

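The authors deposited 1 table of FPKM values per gene and library, per the file headers. StringTie 1.3.1, HISAT2, Bowtie2 2.2.8 and fastp 0.18.0 are listed, per the submitters' processing notes, with no role for any of them; for build, annotation and strandedness nothing is given in the sources used here. Columns were matched to samples by the code that ends each name; the code 7A ends the titles of 2 samples, whose columns were told apart by the start of the name.

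Deposited FPKM values were analysed as log2(FPKM + 1), which understates the change of low genes. Genes reaching 1 FPKM in 3 or more of the PN and sham libraries entered 1 limma fit of group means over all 9 libraries, with a mean-variance trend (limma 3.58.1, R 4.3.3; other values in Python 3.11.15). The fit was also run on simulated data with independent noise for each gene. These held no library-wide deviations and no differences from 0 in a whole group, so they do not bear on the genes called. The reference table (assembly GRCr8) matched 0 of 32883 identifiers, so the 28 gene lists could not be applied, and at most 2 identifiers per direction are printed: genes past the threshold, then the smallest p among genes without 0 or overlap and with 5 FPKM or more in the higher group. Members and lists were chosen with earlier results of these data known. Alternatives changed the pseudocount, filter, scaling, fit, weights, covariate and libraries.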

Additional observations from a re-analysis of the deposited data

How the results depend on the processing

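Over 23 alternatives the number of genes called stayed within 1.5 times of 3 in 21, which does not say that the genes were the same. Array weights called 6 genes, where PN 7A weighed 6.46 and PN 3A 0.337, and leaving out genes listed at 0 called 0 (620 at an unadjusted p under 0.05, limma). Genes at an unadjusted p under 0.05 numbered 392 with a filter of 5 FPKM, 1521 with array weights and 313 with the letter of the code as a covariate (A in every PN library and in 1 sham library), and 249 (without sham 5B) to 967 (without sham 4B) with 1 library left out. The share of them higher in PN was 76.3% with no filter, 72.4% with equal sums, 69.3% with median of ratios, 70.4% with quantiles and 73.0% with array weights, and 56.3% (without PN 6A) to 82.0% (without MCAO 3B) with 1 library left out.

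Genes at least 2-fold higher without overlap numbered 238 with a pseudocount of 0.1, 76 with a filter of 5 FPKM, 87 with array weights, 93 with the code letter and 114 to 342 with 1 library left out. Those lower numbered 47 with a pseudocount of 0.1, 11 with a filter of 5 FPKM, 26 with median of ratios, 28 with quantiles and 17 to 160 with 1 library left out. Fewer libraries make separation easier by construction, so the falls in the higher genes, as to 114, came from differences that dropped under 2-fold. A higher filter tests fewer genes. With a pseudocount of 0.1, array weights or the code letter, the genes without overlap kept their numbers at every level (340 and 96 under 5 FPKM). Under these settings the counts therefore moved through the 2-fold limit alone. For the other settings the cause was not tested. Of alternatives added after the data were seen, omission of PN 3A and sham 9A gave 991 genes at an unadjusted p under 0.05, with 509 higher and 156 lower at 2-fold. Array weights with PN 7A left out gave a share of 63.5%, with 289 higher and 99 lower. No paired analysis of PN and sham was possible because their codes share no number. The PN and MCAO codes do share numbers, but no label says whether this means a pairing, and PN against MCAO was fitted unpaired. What depth limits could not be computed, since the table holds no read numbers.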

Other observations

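Without the filter on low values, more genes had a value in all libraries of one group and 0 in all of the other. There were 43 with a value above 0 in every PN library and 0 in every sham library, and 32 the other way round. The table held 32883 genes, of which 11134 were at 0 in all 6 libraries. In a gene with a value in exactly 3 of the 6, a share of 0.1 of the orderings gives 1 of these patterns without any difference. Such genes were not counted, so 43 and 32 show no difference by themselves. Of the 43, 12 were at 0 in all MCAO libraries and 7 had a value in all of them. Of the 32, 7 were at 0 in all MCAO libraries and 1 had a value in all of them. Above 1 FPKM in every library with a value, 3 genes were left for PN and 1 for sham, and above 5 FPKM 1 and 1. These counts were made after the on and off genes had been seen.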
